A study of Mus musculus with 4 samples.

Results

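Afp, Igf2, H19, Dlk1, Gpc3, Sox9, Spp1, Cd24a and Prom1 are 9 mouse genes that mark fetal liver or liver progenitor cells. They were chosen by name, and their values were taken from every probe set (a group of short probes that reads 1 transcript) annotated to exactly 1 of these symbols. Of the 9 genes, 7 had such a probe set, with 17 probe sets in all, of 18193 genes and 45037 probe sets tested. The H19 probe set is also annotated to Mir675 and was not counted, and Spp1 was not analysed here. The values came from 4 mouse liver tumor samples, each on 1 Affymetrix array. In the 2 p53 on samples, mice had received doxycycline for 8 days, which shuts off a tet-off short hairpin RNA against p53 and lets p53 return. The 2 p53 off samples had 0 days of doxycycline, which leaves the hairpin active and p53 suppressed. The tumors of both groups grew from liver progenitor cells placed into recipient livers, carried the tet-off shp53 and were driven by HrasV12. The host liver, vessels, stroma and immune cells of the recipients can contribute RNA to each sample. No sample had doxycycline without the hairpin, so effects of p53, of doxycycline and of time cannot be told apart. The labels do not say that replicates were separate animals or tumors, and the p-values therefore cover only how far these samples differ, possibly for technical reasons.

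In the fetal liver, hepatoblasts (the shared progenitors of hepatocytes and bile duct cells) make alpha-fetoprotein and growth-promoting imprinted genes, which are shut down after birth. Cells that take the bile duct route keep the transcription factor SOX9, and ductal and progenitor-like liver cells carry surface proteins such as CD24 and prominin-1. Several of these genes are switched on again in liver tumors, where alpha-fetoprotein and glypican-3 serve as clinical markers.

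The Afp gene encodes alpha-fetoprotein, the main plasma protein of the fetus. By the brightest probe set of each gene it gave the largest and least even difference of the 7 measured genes, so the bases before its start are shown. Of the 9 genes, 6 had an entry in the RefSeq promoter table, and the stretch printed is the 250 bases before the annotated start of Afp (GRCm38.p6, chr5:90490464-90490713, plus strand). Capitals mark every match on either strand to TATAAA, the letters of the TATA box motif, and to GTTAA, part of the site of the liver factor HNF1. The TATAAA match lies at -7 to -2 from the annotated start, nearer to it than a TATA box usually lies. The last GTTAA match overlaps its own copy on the other strand.
Afp: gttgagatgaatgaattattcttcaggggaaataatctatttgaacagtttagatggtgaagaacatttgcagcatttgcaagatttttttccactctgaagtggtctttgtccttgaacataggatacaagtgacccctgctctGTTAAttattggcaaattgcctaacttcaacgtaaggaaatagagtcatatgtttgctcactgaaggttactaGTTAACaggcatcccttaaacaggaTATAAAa
Of 32851 such windows in the table, 12.4% held TATAAA, 21.7% held GTTAA on either strand and 5.33% held GTTAA at least 2 times. Matches on both strands were added for the last share, so a single GTTAAC counted as 2. The matches describe the letters only, and HNF1 binding was not measured.

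The values are log2 values made by the authors with RMA, which corrects background and brings the arrays to a common scale. The median per array was 7.39 in both p53 on arrays, and 7.34 and 7.29 in the p53 off arrays. A sign of RNA quality, the 3' minus 5' signal of beta-actin, was 0.478 and 0.492 in p53 on, against 0.395 and 0.262 in p53 off, so it moved with the groups; its part in the results was not tested. The p53 on arrays differed from each other by over 1 on the log2 scale in 86 genes, and the p53 off arrays in 20 genes. By over 2, the p53 on arrays differed in 31 genes and the p53 off arrays in 0 genes. In 27 of those 31 genes p53 on replicate 1 stood more than 1 above both p53 off arrays, and these included genes of skeletal muscle (Myh4, Tnnc2 and Ckm) and fat cells (Adipoq). Within p53 off, Myh4 read 5.03 and 6.66, Tnnc2 7.79 and 9.34, Ckm 7.55 and 8.07, and Adipoq 5.79 and 5.44. Results are given with and without p53 on replicate 1 where its omission changed them.

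Of the 7 measured genes, Cd24a and Sox9 fell in p53 on, none was called higher, and 5 were not called by limma at an adjusted p of 0.05. At an unadjusted p under 0.05, 2 were higher (Dlk1 and Gpc3) and 2 lower. The share of all genes or probe sets at an unadjusted p is not given here, so unadjusted counts have no background. By the adjusted p, 28.7% of all genes were called, 14.7% lower and 14% higher in p53 on. The share of calls that were higher in p53 on was 48.8%. It came to 37.9% once array medians were made equal, and to 70% under spike-in scaling, which sets each array to its added control RNAs. The 2 p53 on values did not overlap the 2 p53 off values in any of the 7 genes, but this was so for 66.7% of all genes. The median change of the 7 genes was 0.21, against 0.02 over all genes. Over the 17 probe sets 8 were called lower and 0 higher. Of all probe sets, 11.5% were called lower and 11.3% higher (22.8% in either direction). The median of the 17 was -0.49 against 0.03. At an unadjusted p under 0.05, 9 of the 17 were lower and 2 higher. The 8 lower probe sets belonged to 3 genes, and probe sets of 1 gene share their transcript.

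**Figure D1:**
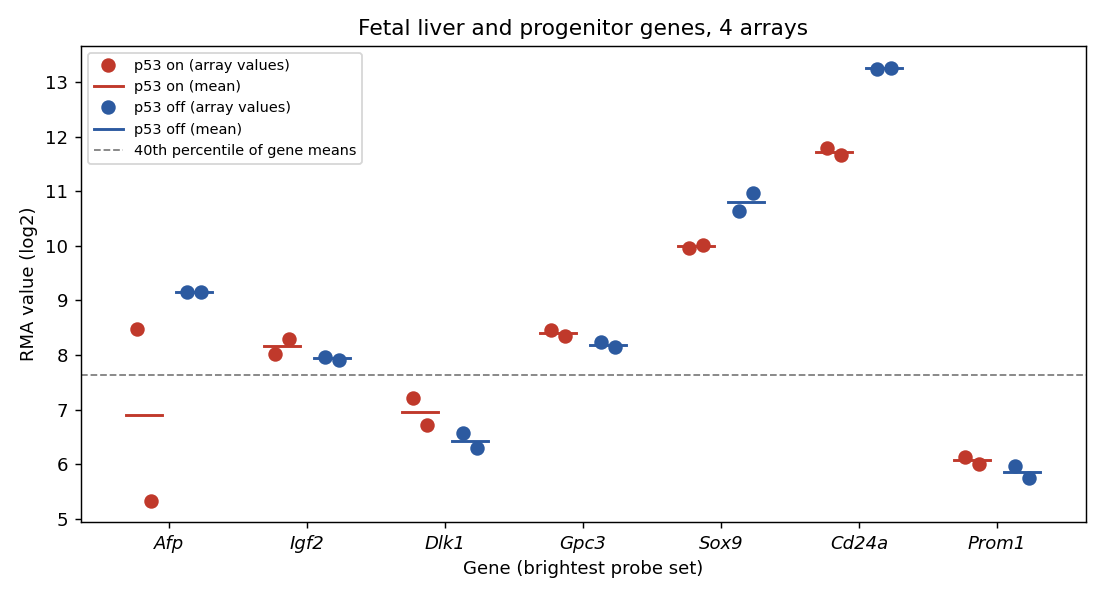
RMA values (log2, vertical axis) of the 7 measured genes in each array, by the brightest probe set of each gene. Red points are p53 on arrays, blue points p53 off arrays, short lines group means, and the dashed line marks 7.63, the value under which 40% of genes lie by mean. Cd24a and Sox9 were lower in both p53 on arrays, and the Afp points of p53 on lie far apart, at 8.47 and 5.33.

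Among the secreted fetal proteins, Afp was lower in both p53 on arrays, but to very different extents. Its brightest probe set read 8.47 and 5.33 in p53 on replicates 1 and 2, against 9.16 and 9.15 in p53 off. The 2 p53 off arrays were nearly equal, p53 on replicate 1 differed from their mean by -0.69 and p53 on replicate 2 by -3.82. The reading of 5.33 lay near the bottom of its array, whose lowest value was 4.67, so the size of that fall is uncertain. The change of -2.25 ± 0.95 on the log2 scale (SE, n = 2 against 2) was not called (limma adjusted p = 0.14), as the p53 on arrays lay more than 2 apart. By size of the difference between the p53 on arrays Afp ranked 9 among 18193 genes. The next brightest probe sets showed the same split. One read 7.66 and 6.24 in p53 on, against 8.27 and 8.26 in p53 off, and was not called (-1.31 ± 0.43; limma adjusted p = 0.0864 over all probe sets). Another read 7.06 and 6.37 in p53 on, against 7.56 and 7.57 in p53 off, and was called lower (-0.85 ± 0.22; limma adjusted p = 0.0431).

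The remaining Afp probe sets were dim and did not split the p53 on arrays. One read 6.02 and 6.13 in p53 on, against 6.39 and 6.54 in p53 off (-0.39 ± 0.089; limma adjusted p = 0.0297). The dimmest read 5.79 and 5.82 in p53 on, against 5.90 and 5.95 in p53 off, and was not called (limma adjusted p = 0.291). In each of the 5 Afp probe sets both p53 on arrays were below both p53 off arrays. With either p53 on array left out the change was called, at -0.69 without replicate 2 (limma adjusted p = 0.00392) and at -3.82 without replicate 1 (0.000108). In both cases the lone p53 on array was assumed to vary like the p53 off pair, which was nearly equal. The adjusted p lay between 0.000108 and 0.381 over the 14 alternatives, and averaging the 5 probe sets gave -0.99 (0.0714). Taking the brightest Afp probe set not marked as prone to cross-hybridization, with all 4 arrays kept, gave -0.85 and a call (0.0372). By either choice the change of Afp was smaller than that of Cd24a, at -1.55 by the mean and -1.85 by the unmarked probe set.

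**Figure D2:**
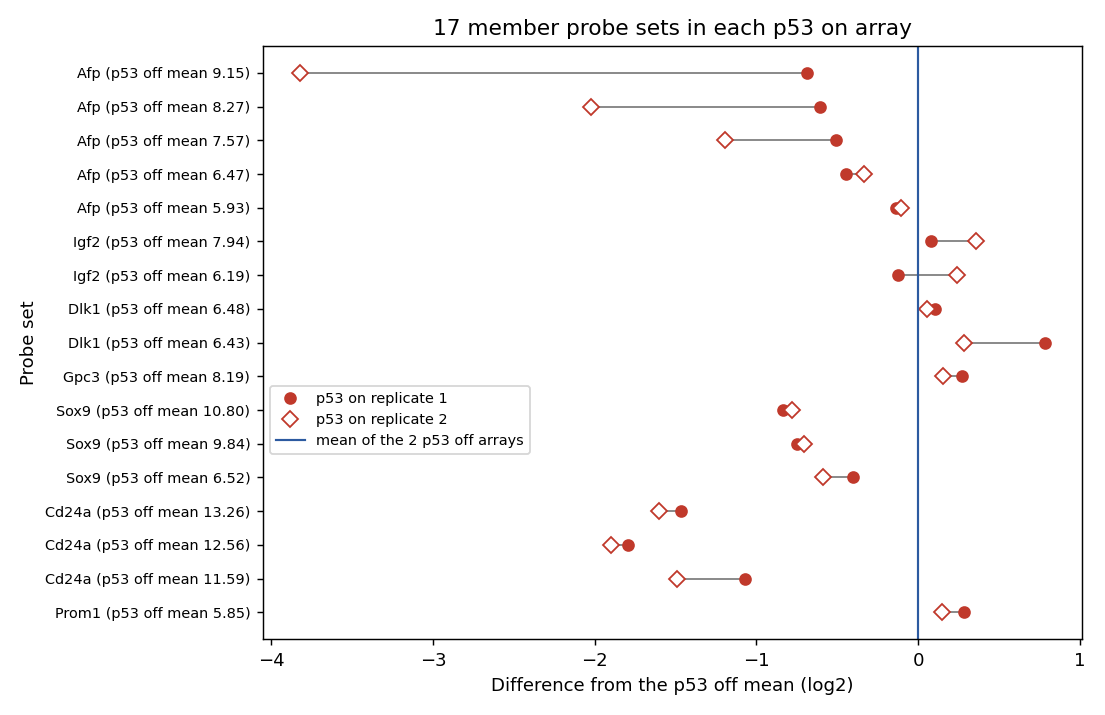
Difference of each p53 on array from the mean of the 2 p53 off arrays (log2, horizontal axis) for the 17 probe sets, labelled by gene and p53 off mean. Filled circles are p53 on replicate 1 and open diamonds replicate 2. The brightest Afp probe set lies at -0.69 and -3.82, whereas the 3 Sox9 and 3 Cd24a probe sets lie left of 0 in both arrays.

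Igf2 encodes insulin-like growth factor 2, a fetal growth factor made from the paternal allele. Its brighter probe set read 8.02 and 8.30 in p53 on, against 7.97 and 7.91 in p53 off. The arrays of p53 on were slightly higher, with a change of 0.22 ± 0.11 that was not called (limma adjusted p = 0.206). Without p53 on replicate 1 the change was 0.36 and was called (0.0404), and without replicate 2 it was 0.08 (0.615, the highest over the alternatives). The dimmer Igf2 probe set read 6.06 and 6.43 in p53 on, against 6.21 and 6.17 in p53 off, so its groups overlapped. Both probe sets were far from the top of the arrays. By group mean the brighter one stood at percentile 48.1 of all genes in p53 on and 45.8 in p53 off. Such percentiles place a probe set on its array and do not order genes by transcript amount, since probes differ in affinity.

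Dlk1 encodes a membrane protein of the Notch ligand family that marks hepatoblasts. Its brighter probe set by mean over the arrays read 7.22 and 6.71 in p53 on, against 6.57 and 6.30 in p53 off. Both p53 on arrays were higher, by 0.53 ± 0.19 on average, and the change was not called (limma adjusted p = 0.0894). Among the alternatives that gave a call were the fit without p53 on replicate 2 (0.78; 0.0081) and that with spike-in scaling (0.66; 0.0303). Without p53 on replicate 1 it was 0.28 (0.187). The other Dlk1 probe set read 6.58 and 6.53 in p53 on, against 6.49 and 6.46 in p53 off, a change of 0.08 (0.504 over all probe sets). Both lay among the dimmest 40% of values, at a percentile of 28.8 in p53 on and 20.7 in p53 off for the gene. RMA compresses changes of such dim probe sets.

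Gpc3 encodes glypican-3, a heparan sulfate proteoglycan at the cell surface of fetal liver. Its only probe set read 8.46 and 8.34 in p53 on, against 8.23 and 8.15 in p53 off. It was higher in both p53 on arrays by 0.21 ± 0.083, and the change was not called (limma adjusted p = 0.118). Spike-in scaling, which raised the change of the median gene from 0.02 to 0.15, gave 0.34 and a call (0.0317). Its adjusted p over the alternatives lay between 0.0317 and 0.438.

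Among the bile duct and progenitor genes, Sox9 fell in p53 on. Sox9 encodes a transcription factor of ductal cells and of bipotent liver progenitors. Its brightest probe set read 9.97 and 10.03 in p53 on, against 10.64 and 10.96 in p53 off, a change of -0.81 ± 0.12 (1.75-fold lower; limma adjusted p = 0.0069). The p53 on arrays were within 0.06 of each other. The second probe set read 9.08 and 9.13 in p53 on, against 9.85 and 9.82 in p53 off (-0.73 ± 0.071; limma adjusted p = 0.00229 over all probe sets). The third was dim, at 6.12 and 5.93 in p53 on, against 6.47 and 6.56 in p53 off, and also fell (-0.49 ± 0.093; 0.0167). Sox9 was called under each of the 14 alternatives, with changes from -0.97 to -0.65. Those 14 do not include the size threshold: with a change of at least 1 also required, Sox9 was not called. The mean level of Sox9 placed it at percentile 77.5 of all genes in p53 on and 86.6 in p53 off.

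Cd24a had the largest called change of the 7 genes. It encodes a small glycosylated surface protein of many immature epithelial and blood cells. Its brightest probe set read 11.79 and 11.66 in p53 on, against 13.25 and 13.27 in p53 off. That is a fall of 1.53 on the log2 scale (SE 0.082; 2.89-fold lower; limma adjusted p = 0.00051). The other 2 probe sets fell as well. One read 10.77 and 10.66 in p53 on, against 12.47 and 12.65 in p53 off (-1.85 ± 0.093; limma adjusted p = 0.00055 over all probe sets). The other read 10.52 and 10.10 in p53 on, against 11.47 and 11.71 in p53 off (-1.28 ± 0.16; 0.00463). Cd24a was called under each of the 14 alternatives, from -1.85 to -1.40, and remained bright on all arrays, at percentile 94.8 in p53 on and 99.2 in p53 off.

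Prom1 encodes prominin-1 (CD133), a membrane protein of ductal and progenitor-like liver cells. Its only probe set read 6.14 and 6.002 in p53 on, against 5.96 and 5.75 in p53 off. The change of 0.22 ± 0.10 was not called (limma adjusted p = 0.186), nor under any of 13 alternatives (0.0543 to 0.642). At percentile 13.6 of all genes in p53 on and 10.4 in p53 off it lay near the dim end of the arrays, so these values say little about its level.

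**Figure D3:**
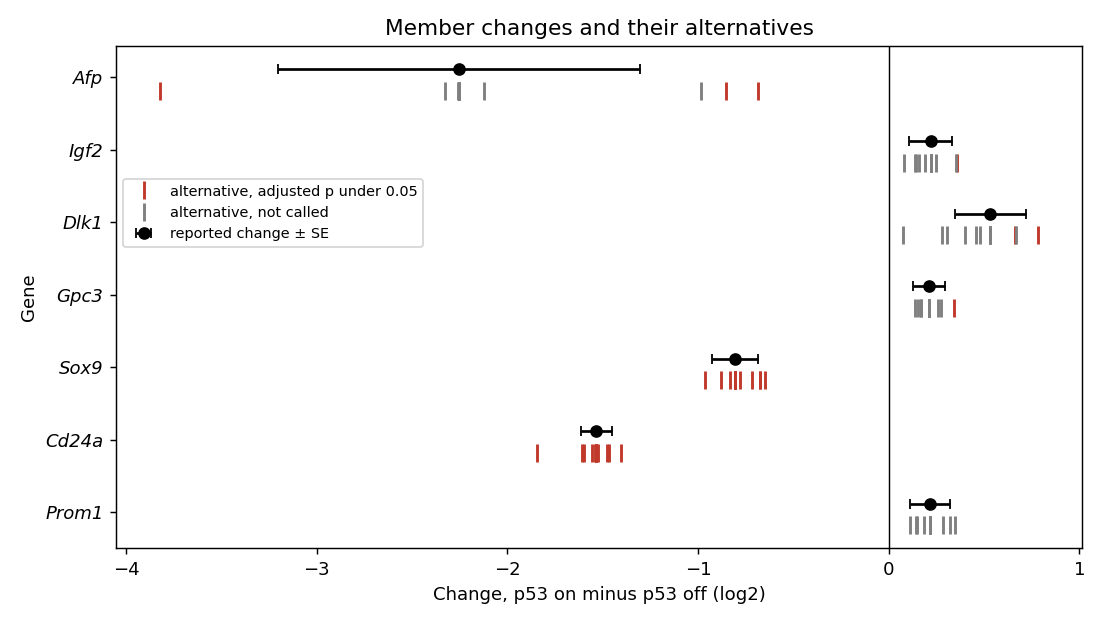
Change of each gene (p53 on minus p53 off, log2, horizontal axis). Black points and bars are the reported change and its SE, and the ticks beneath are the alternatives, red where the adjusted p was under 0.05. All ticks of Sox9 (-0.97 to -0.65) and Cd24a (-1.85 to -1.40) are red, and those of Afp spread from -3.82 to -0.69.

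By the smallest root mean square difference of centred values over the 4 arrays, the called genes most like Cd24a were Tmem200a (0.0502), Cip2a (0.054) and Ccdc68 (0.0572). CIP2A, an inhibitor of the phosphatase PP2A, is a known growth-promoting protein. Tmem200a and Ccdc68 changed by -1.56 ± 0.075 and -1.50 ± 0.072. Cip2a changed by -1.60 ± 0.097 in its brightest probe set and by -0.27 in the other, and Tmem200a by -0.16 in its other one.

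Hepatoblast genes other than the 9 moved both ways: of 20 measured, 5 rose and 7 fell (median 0.02, or -0.05 with arrays centred on their medians). Ptn, which encodes the growth factor pleiotrophin, rose by 2.34 ± 0.13 (limma adjusted p = 0.00051), with 1.24 as the mean of its 3 probe sets. Foxa1, a pioneer factor of early liver, changed by -1.78 ± 0.098 (0.00051), and the oncofetal chromatin gene Hmga2 by -1.64 ± 0.075 (0.00041). The hepatocyte factor gene Hnf4a changed by -0.58 ± 0.087 (0.0071) in its brightest probe set and by -1.54 in the brightest one not marked as prone to cross-hybridization. Of its 4 probe sets 2 were called lower, the smallest change was -0.06 and the mean was -0.59.

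Of 17 measured genes of the imprinted network to which Igf2, H19 and Dlk1 belong, 3 rose and 4 fell (median 0.08). Nnat, an imprinted membrane protein gene, changed by -1.85 ± 0.12 (limma adjusted p = 0.00072) and the paternally expressed zinc finger gene Peg3 by -1.17 ± 0.13 (0.00299). Grb10, an adaptor that dampens insulin and IGF receptor signalling, rose by 1.04 ± 0.075 (0.00091). Averaged over all their probe sets, Grb10 was at 0.61 and Peg3 at -0.63.

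Among 18 measured regulators of Afp, H19 and Gpc3, 7 rose and 4 fell (median 0.17). Nfia, a nuclear factor I gene, rose by 1.18 ± 0.075 (limma adjusted p = 0.00072; 0.69 with the mean of its 6 probe sets), and Gata6 changed by -1.17 ± 0.15 (0.00436; -0.57 with the mean of its probe sets), as did Foxa1 above. Foxa2, which also binds Afp regulatory DNA, changed by -0.81 ± 0.073 (0.00158), and Cebpa, a hepatocyte factor gene, rose by 0.87 ± 0.074 (0.00135). Zhx2, a repressor of Afp, H19 and Gpc3 in adult mouse liver, read 8.71 and 8.67 in p53 on, against 8.67 and 8.61 in p53 off, a change of 0.05 that was not called (0.635) and was -0.02 with centred arrays. Zbtb20, another known repressor of Afp after birth, read 9.89 and 9.61 in p53 on, against 9.14 and 9.39 in p53 off. It rose by 0.48 ± 0.13 (0.0474), and the alternatives that lost this call included centred arrays (0.0685) and the fits without p53 on replicate 1 (0.11) and without p53 off replicates 1 (0.196) and 2 (0.0802).

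Of 19 other measured bile duct and ductal progenitor genes, 2 rose and 8 fell (median -0.13). The annexin gene Anxa13 changed by -2.34 ± 0.19 (limma adjusted p = 0.00118), the claudin gene Cldn4 by -1.34 ± 0.12 (0.00142) and the E-cadherin gene Cdh1 by -1.20 ± 0.13 (0.00253). The ductal keratin gene Krt19 also fell, at -1.04 ± 0.15 (0.00598). Of the 19 genes, 9 were not called. These included the ductal keratin gene Krt7 (0.10), Cftr (-0.13) and Pkhd1 (-0.09), which all lay among the dimmest 40% of genes. Bicc1 rose by 0.82 ± 0.077 (limma adjusted p = 0.00173). Epcam, an adhesion molecule of ductal and progenitor cells, rose by 0.52 ± 0.072 (0.00531), a call lost without p53 off replicate 2 (0.0514), and averaged 0.34 over both probe sets.

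Surface genes used to mark progenitor or tumor-initiating cells split as well, with 7 of 15 higher and 5 lower (median 0.42). Met, the hepatocyte growth factor receptor gene, changed by -2.34 ± 0.072 (limma adjusted p = 0.00028; -1.34 with the mean of its probe sets) and the retinaldehyde dehydrogenase gene Aldh1a3 by -1.68 ± 0.15 (0.00153). The adhesion gene Icam1 rose by 1.58 ± 0.085 (0.00051).

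Of 14 measured partners and targets of SOX9, 1 rose and 5 fell (median 0.09), while 5 rose and 2 fell with spike-in scaling. The gene that rose was Sox5, a partner of SOX9 in cartilage, at 1.36 ± 0.14 (limma adjusted p = 0.00207; 0.52 with the mean of its 7 probe sets). The Notch ligand gene Jag1 changed by -0.85 ± 0.13 (0.00681), a call lost without p53 off replicate 2 (at -0.83). The progenitor factor gene Sox4 changed by -0.55 ± 0.090 (0.0088), a call also lost without that array (at -0.52). Its 8 probe sets ran from -0.86 to 0.25 with a mean of -0.40, and 5 of them were called lower.

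Among 24 measured ligand and receptor partners of the 9 genes, 6 rose and 8 fell (median -0.02, or 0.11 with spike-in scaling). Igfbp5, which encodes an IGF binding protein, changed by -2.28 ± 0.25 in 1 probe set (limma adjusted p = 0.00259) and by 0.06 in the other. Igf2bp3, which encodes an oncofetal protein that binds Igf2 mRNA, changed by -2.25 ± 0.080 (0.00028). Of its 6 probe sets 5 were called lower, and their mean change was -1.67 over all 6. The brightest Igf2bp3 probe set not marked as prone to cross-hybridization changed by -0.13 (0.304). The integrin gene Itga4, a receptor subunit for osteopontin, rose by 1.08 ± 0.12 (0.00272; 0.37 with the mean of its 5 probe sets). Igf2r, the receptor that clears IGF2, read 10.99 and 11.18 in p53 on, against 10.60 and 10.69 in p53 off. It rose by 0.44 ± 0.095 (0.0219), a call lost in, among others, the fits without p53 on replicate 2 (0.0505) and without p53 off replicates 1 (0.114) and 2 (0.0922).

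**Figure D4:**
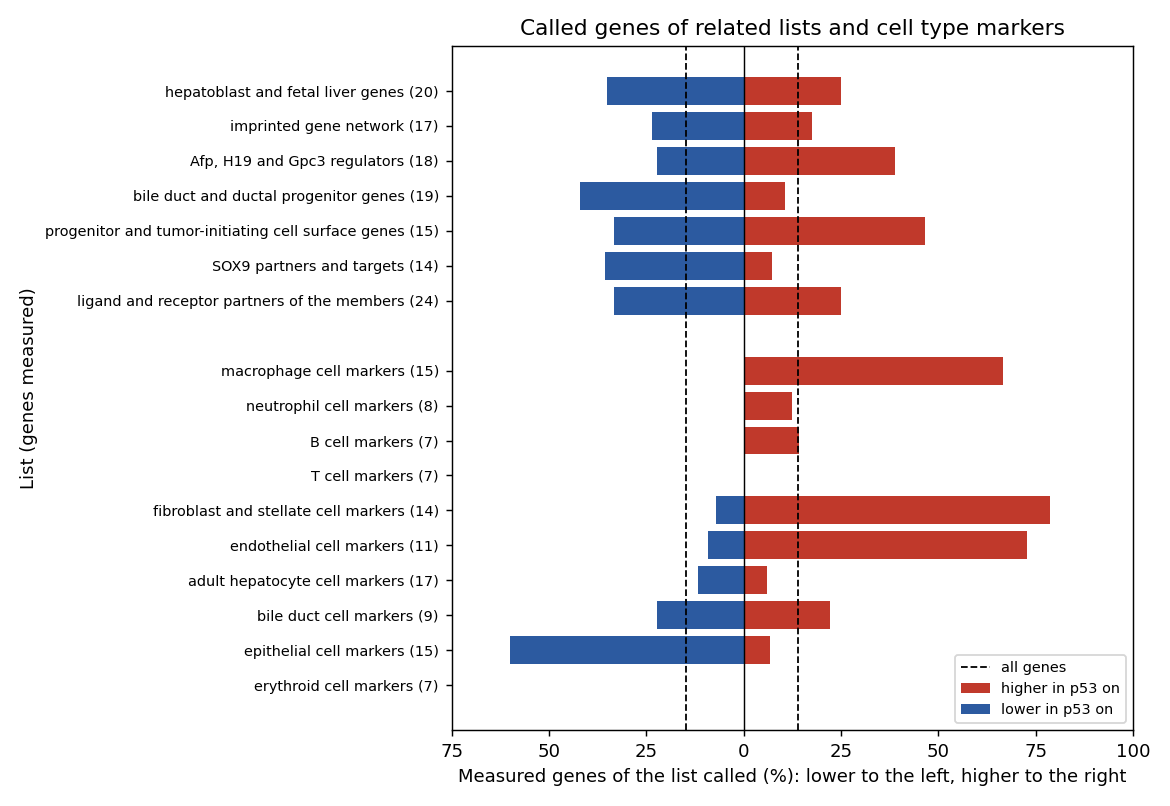
Share of measured genes called higher (red, to the right) or lower (blue, to the left) in p53 on for 7 related gene lists without the 9 genes and for 10 cell type marker lists. Dashed lines mark all genes, 14% higher and 14.7% lower. Epithelial markers lie mostly to the left, and macrophage, fibroblast and endothelial markers to the right.

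Markers of the cell types that the tumors can hold were read in the same arrays. Of 17 measured adult hepatocyte markers, 9 were among the dimmest 40% of genes, and the rest were brighter. The albumin gene Alb read 7.39 and 6.96 in p53 on, against 7.07 and 7.06 in p53 off. Hp, from the same list, was brighter than Alb on every array, with its values given under the other observations. The mean level of this list was 7.51 to 7.78 in p53 on and 7.73 to 7.74 in p53 off, with 1 gene higher and 2 lower (median 0.06). Epithelial markers fell with Sox9 and Cd24a: 9 of 15 were lower and 1 higher (median -0.41), and their mean level was 8.86 in both p53 on arrays against 9.53 to 9.58 in p53 off. Bile duct markers had 2 higher and 2 lower of 9 (median -0.01), at 7.80 to 7.85 in p53 on and 7.96 to 8.13 in p53 off. In bulk tissue, fewer cells of a type and less RNA per cell cannot be told apart.

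Other cell types that can express these genes moved too. Macrophage markers had 10 of 15 higher and 0 lower by limma, the same counts as at an unadjusted p under 0.05 (median 0.79), with a mean level of 10.32 to 10.47 in p53 on and 9.80 to 9.87 in p53 off. Fibroblast and stellate cell markers had 11 of 14 higher and 1 lower (median 0.58; mean level 11.78 to 11.82 in p53 on and 10.83 to 11.16 in p53 off). Endothelial markers had 8 of 11 higher and 1 lower (median 0.71; mean level 9.02 to 9.39 in p53 on and 8.55 to 8.61 in p53 off). Their part in the changes of the fetal and progenitor genes was not tested. B cells and neutrophils carry CD24. Of 7 B cell markers 1 was higher and 0 lower, with 6 among the dimmest 40% of genes (mean level 7.06 to 7.08 in p53 on and 6.93 to 6.99 in p53 off), and Cd79a read 6.40 and 6.40 in p53 on against 6.47 and 6.37 in p53 off. Of 8 neutrophil markers 1 was higher and 0 lower, with 5 among the dimmest (mean level 7.35 to 7.58 in p53 on and 7.22 to 7.57 in p53 off). T cell and erythroid markers had 0 of 7 called each by limma (2 and 0 higher and 0 lower at an unadjusted p under 0.05), with 5 and 7 among the dimmest and medians of 0.07 and 0.09.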

How the data were processed

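Total RNA from 4 mouse liver tumor samples was amplified by in vitro transcription, biotin-labelled and hybridized to 1 Affymetrix array each, per the labels' protocols. The deposited table holds log2 values that the authors made with RMA, per the submitters' processing notes. These also list limma 3.14.4. The build is not given in the sources used here. Values ran from 4.66 to 14.9, and RMA gives no detection call. Precision is limited by the number of arrays.

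Of 45101 probe sets, 64 were controls, 34945 had exactly 1 gene symbol in the platform annotation, 932 several and 9160 none. Each gene was represented by its brightest probe set by mean over the 4 arrays. Genes (18193) and, separately, all 45037 probe sets were fitted in limma 3.58.1 (lmFit and eBayes, R 4.3.3) with no block, and changes are p53 on minus p53 off. P-values were adjusted by Benjamini-Hochberg over all of them. With 2 residual degrees of freedom, 5.47 moderated, a permutation test of single genes cannot pass 0.05 and was not used. The fit was tested on simulated data.

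The members and lists were chosen with earlier results of these data known. Beside the members, the text names up to 3 called genes with the largest change from each of 7 lists and the 3 genes most like Cd24a. Zhx2, Zbtb20, Krt19, Epcam, Hnf4a, Foxa2, Cebpa, Igf2r, marker genes and the genes of the array check were named after their values were seen. So were Krt7, Cftr, Pkhd1 and Bicc1. Alternatives were a replicate block, other scalings, other probe set choices, a filter on dim genes, other eBayes settings, array weights, a size threshold and leaving out each array. Promoter bases are from RefSeq. Figures were drawn with matplotlib 3.10.9.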

Additional observations from a re-analysis of the deposited data

How the results depend on the processing

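The falls of Cd24a and Sox9 were called under all 14 alternatives run for each gene. The counts that follow are of the 7 measured genes, so without H19 and Spp1. The count called lower was 2 in the reported fit. With a change of at least 1 required it was 1 (Cd24a), and Sox9 was not called. It was 3 with the brightest probe set not marked as prone to cross-hybridization (Afp added, at -0.85, limma adjusted p = 0.0372). The count called higher was 0, against 2 with spike-in scaling (Dlk1 and Gpc3) and 1 with the replicate block (Dlk1, at 0.53, limma adjusted p = 0.028). Under spike-in scaling 6313 of all 18193 genes were called, 70% of them higher, so calls of higher genes were common there. Of the 17 probe sets, those called higher numbered 2 with spike-in scaling, 1 with the replicate block and 0 to 1 with an array left out, against 0; those called lower numbered 3 with the size threshold and 5 to 10 with an array left out, against 8. Over all genes 5223 were called, 960 of them with a change of at least 1, and 2228 to 5055 with an array left out. Same-numbered arrays did not deviate together (r = -0.1538 across genes), so the numbers were not taken as pairs. The replicate block called 4323 genes and lost Zbtb20 (limma adjusted p = 0.0975). A crossed block, added after seeing the data, called 3954 genes. It called 0 higher and 2 lower of the 7, and did not call Dlk1 or Igf2r. The median of hepatoblast genes was -0.0535 with centred arrays, that of ligand and receptor partners 0.11 with spike-in scaling, and Zhx2 was at -0.02001 with centred arrays. Leaving an array out also leaves 1 array in a group, with its spread taken from the other group. Dim probe sets (Dlk1, Prom1 and the lower ones of Afp, Igf2 and Sox9) limit what their changes can show.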

Other observations

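Afp stood out among the 31 genes whose p53 on arrays differed by over 2 on the log2 scale, a grouping made after the values were seen. In 27 of them p53 on replicate 1 was more than 1 above both p53 off arrays, and in 3 (Mmp1a, Prl8a9 and Zic1) this was so for p53 on replicate 2. Afp was the 1 gene of the 31 in which p53 on replicate 2 was more than 1 below both p53 off arrays while p53 on replicate 1 was within 1 of them. With no limit on the difference between the p53 on arrays, 66 genes met that description. Cyp2e1, an adult hepatocyte gene among those 27, read 9.71 and 7.39 in p53 on, against 7.27 and 7.24 in p53 off. Hp, another hepatocyte gene, read 9.75 and 8.35 in p53 on, against 9.05 and 8.44 in p53 off. Both were picked from 17 measured hepatocyte markers after their values were seen. The mean level of all 17 was 7.51 to 7.78 in p53 on, so these genes do not stand for the list.

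One probe set was annotated to H19 and Mir675 together and was counted for neither. It read 11.77 and 11.37 in p53 on, against 9.90 and 10.19 in p53 off, a change of 1.53 ± 0.16 (limma adjusted p = 0.00296 over all probe sets). Both p53 on arrays were higher, whereas none of the 17 probe sets of the measured genes was called higher.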
